A study of Mus musculus with 13 samples.

Results

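Lgr5 stem-like epithelial cells of mouse colon tumors were described here, 1098 cell barcodes of the 93871 tumor barcodes that passed the quality limits and of 118892 in the whole series. They were chosen by raw counts of unique molecular identifiers (UMIs, 1 per captured RNA molecule). A barcode needed at least 500 UMIs, at least 200 genes and less than 25% mitochondrial UMIs. Its Epcam, Krt8 and Krt18 UMIs, which mark epithelium, had to sum to at least 10, with Ptprc, the pan-leukocyte gene, at 0. The Wnt-induced genes Axin2, Nkd1, Notum, Wif1 and Prox1 had to sum to at least 3. The proliferation genes Mki67 and Top2a had to stay under 4, the Paneth cell gene Lyz1 under 10 and Ptn plus Mt4 under 5, and Lgr5 itself had to reach 2. None of these 15 genes is a result below, and their levels are given as a description.

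The libraries came from 3 C57BL/6J mice of genotype ApcMin/+; p16cis/cis, which carry a truncating Apc allele and an engineered p16 epimutation, an allele whose promoter is prone to methylation. All were fed the supplemented diet, so the diet was shared by every library, and no animals on control diet were analysed here. Mouse A, 24 weeks old, gave tumors 5 to 8, mouse B, 23 weeks old, gave tumors 9 and 10, and mouse C, 20 weeks old, gave tumors 1 to 4. Each mouse also gave 1 library of adjacent mucosa, which was released with EDTA and TrypLE, whereas tumors were digested with a Miltenyi tumor dissociation kit, so tissue and digestion cannot be told apart. The tumors of 1 mouse are not separate animals, and tests over 10 tumors measured the spread between tumors. The 13 libraries held 57221300 to 116133079 UMIs, and the summed Lgr5 cells 17186239. All 13 libraries held more UMIs of 4 Y-linked genes than of Xist, including the 7 labelled female, so sex was not used.

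Lgr5 is a receptor for R-spondins, secreted proteins that strengthen Wnt signaling, and it marks the dividing stem cells at the base of the intestinal crypt. In these cells Wnt signaling keeps β-catenin stable, and β-catenin with TCF factors switches on targets that include Lgr5, Ascl2 and feedback inhibitors such as Axin2, Rnf43 and Notum. Loss of Apc, the scaffold that marks β-catenin for destruction, starts most intestinal adenomas, and the cells of such tumors differ among themselves in how closely they resemble crypt stem cells or the fetal and regenerating epithelium, which expresses Ly6a, Anxa1 and Clu.

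TCF factors bind DNA at a short core sequence, and 2 genes of the stem cell and Wnt lists used below carried its 8-letter form, CTTTGATC or, on the other strand, GATCAAAG, in the 250 bases before their start. The sequences are from RefSeq, build GRCm38.p6, and are shown because Sp5, a Wnt-induced transcription factor, and Tnfrsf19, a stem cell receptor also called Troy, are described below. The capitals mark the 8-letter match, whose last base lay 97 bases before the Sp5 start and 196 bases before the Tnfrsf19 start. Each is written 5′ to 3′ on the strand of its gene, Sp5 at chr2:70474773-70474872 on the plus strand and Tnfrsf19 at chr14:61038137-61038236 on the minus strand.
Sp5: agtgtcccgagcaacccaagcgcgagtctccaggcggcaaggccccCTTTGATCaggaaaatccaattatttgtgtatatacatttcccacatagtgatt
Tnfrsf19: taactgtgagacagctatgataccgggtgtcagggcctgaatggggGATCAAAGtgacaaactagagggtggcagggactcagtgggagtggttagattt
Promoter entries of a single chromosome were left out of the counts that follow. Of the 64 genes of these 3 lists, 39 had a promoter entry, and these 2 held the match. Among the 32851 promoter entries that remained for all genes, 0.801% held it, a share of entries and not of genes. A match is a description of the letters only.

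The Lgr5 cells were found in every tumor. Tumors 1 to 10 held 115, 140, 125, 166, 77, 256, 30, 60, 99 and 30 of them. As a share of the tumor epithelial cells that passed the epithelial and leukocyte limits, 16136 in all, they ranged from 1.82% in tumor 7 over a median of 6.63% to 17.6% in tumor 6, and the mean was 6.74% ± 4.33 (SD, n = 10). Tumor 6 stood apart, since the next tumor was at 8.27%. The other tumors of mouse A were at 4.50%, 1.82% and 5.24%, so the share spread more widely within this mouse than the mouse means did. No difference between the 3 mice was detected in an exact permutation test of the F statistic over 3150 arrangements (p = 0.862), with mean shares of 7.28%, 4.67% and 7.24% in mice A, B and C.

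**Figure D1:**
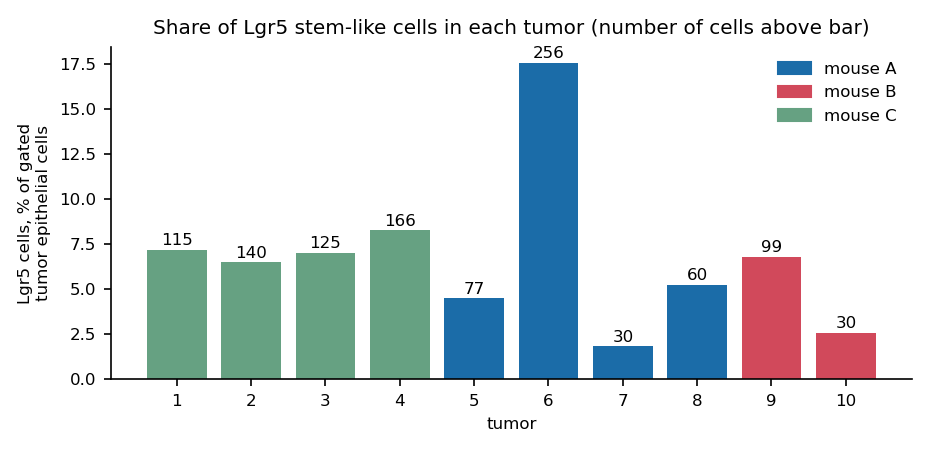
Bars show, for each tumor, the Lgr5 stem-like cells as a percentage of gated tumor epithelial cells, colored by mouse, with the number of cells above each bar. Tumor 6 is at 17.6% and the other 9 tumors lie between 1.82% and 8.27%.

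In all, 2604 gated tumor epithelial cells had at least 2 Lgr5 UMIs. Of these, 364 failed the limit on the Wnt-induced genes, 539 the limit on Mki67 and Top2a, 175 that on Lyz1 and 738 that on Ptn and Mt4, and a cell could fail several. Most of the chosen cells held few Lgr5 UMIs, with 457 cells at 2, 398 at 3 to 4, 215 at 5 to 9 and 28 at 10 or more, and a highest count of 18. The cells at 2 UMIs had a median depth of 10076 UMIs and those at 10 or more one of 25977. No barcode of the Lgr5 cells was seen in more than 1 tumor, and 20 of them (1.82%) were among the highest doublet scores, against 2.5% of cells with Lgr5 at 0.

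Levels are given as CPM, the UMIs of a gene in the summed cells of a tumor scaled to a common library total. Just outside the threshold lay 788 cells that met every other limit and had 1 Lgr5 UMI. Their mean Smoc2 level was 159 CPM ± 25.7 (SD, n = 10 tumors), beside 224 ± 39.3 in cells with 2 Lgr5 UMIs, just inside it. Their Anxa1 level was 192 CPM ± 95.3 beside 265 ± 141. The 2480 cells with Lgr5 at 0 served as the comparison within each tumor. They were shallower, with a median of 9014.5 UMIs and 2706.5 genes, against 13024.5 UMIs and 3650 genes in the Lgr5 cells, and an Lgr5 count of 0 in a shallow cell does not show that the gene was silent. The median share of mitochondrial UMIs was lower in the Lgr5 cells in 10 of 10 tumors, at 3.68 to 12.4% against 4.73 to 13.9%, and its part in the differences below was not tested.

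The markers proposed for these cells were then read in the summed UMIs of each tumor. The markers and the gene lists below were chosen with earlier results of these data known, so tests on them are not independent support. Lgr5 itself was at 175 to 291 CPM by selection, and Axin2, also part of the selection, was at 215 CPM ± 19.7 in the Lgr5 cells and 209 ± 19.5 in the Lgr5 = 0 cells. Smoc2, a secreted matrix protein of crypt stem cells, lay between 217 and 273 CPM over the 10 tumors with a median of 247. In the Lgr5 = 0 cells it lay between 53.9 and 123 CPM with a median of 81.1, so the groups did not overlap. Its difference was 1.58 ± 0.10 on the log2 scale (SE, edgeR quasi-likelihood test with tumor as a term, Benjamini-Hochberg adjusted p = 1.25e-08), and it was higher in 10 of 10 tumors. Rnf43, a ubiquitin ligase that removes Wnt receptors from the membrane, was at 139 to 208 CPM against 113 to 161 CPM, a smaller difference of 0.29 ± 0.07 on the log2 scale (edgeR adjusted p = 0.0034). Rnf43 was higher in 9 of 10 tumors, with overlapping groups.

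The other markers did not separate the Lgr5 cells from the Lgr5 = 0 cells. Sox4, a transcription factor of progenitor cells, had a median of 687 CPM against 608 CPM and was higher in 10 of 10 tumors, with a log2 difference of 0.10 ± 0.05 that missed the threshold (edgeR adjusted p = 0.157, with 0.0071 to 0.691 over 20 alternative settings, of which 3 passed). Onecut2, a transcription factor of the foregut and small intestine, varied between tumors from 59.1 to 322 CPM in the Lgr5 cells and from 56.6 to 358 CPM in the Lgr5 = 0 cells. It was lower by the test, at -0.42 ± 0.13 on the log2 scale (edgeR adjusted p = 0.0212), but in only 6 of 10 tumors, and 6 of the 20 alternative settings lost that call (adjusted p from 1.71e-08 to 0.586). Olfm4, a stem cell gene of the small intestine, gave 1 UMI in all Lgr5 cells together.

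**Figure D2:**
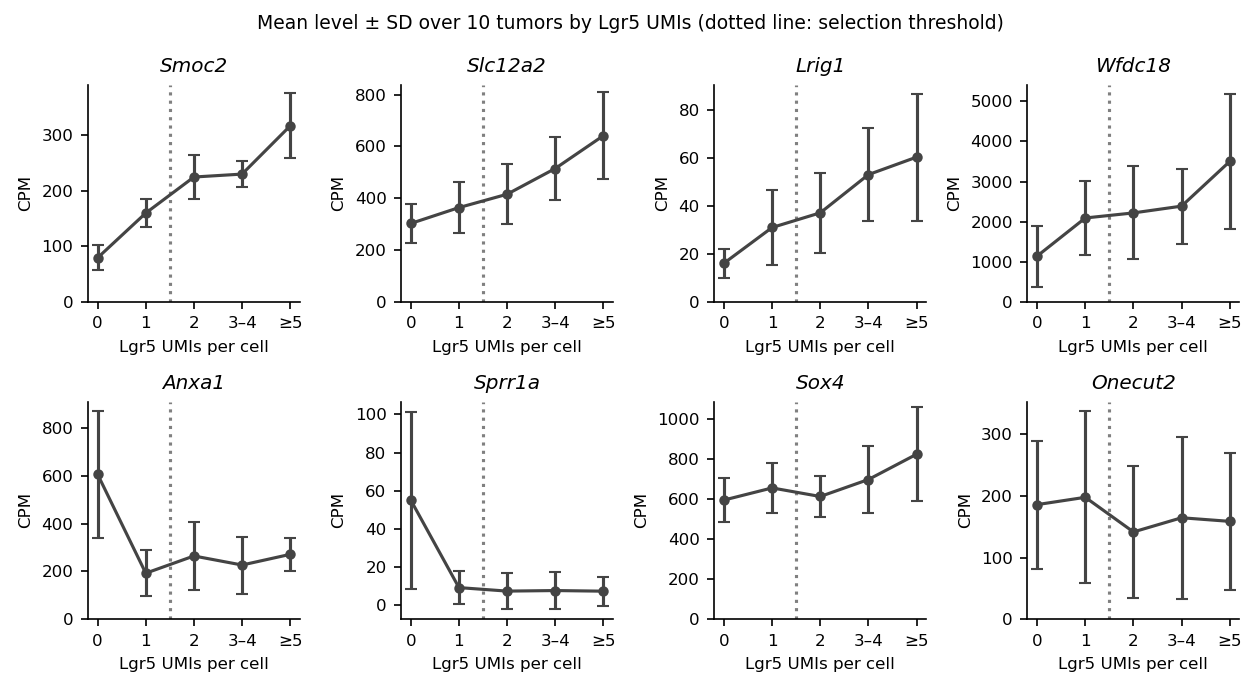
Mean level in CPM (± SD over 10 tumors) of 8 genes in Wnt-active tumor epithelial cells grouped by their Lgr5 UMIs, with the selection threshold as a dotted line. The sums at 5 or more Lgr5 UMIs held 3 to 79 cells per tumor. Smoc2 goes from 79.1 CPM at 0 to 316 CPM at 5 or more, Anxa1 is at 607 CPM at 0 and 192 to 271 CPM in the other groups, and Sox4 and Onecut2 keep overlapping error bars.

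Read along the number of Lgr5 UMIs, some genes increased steadily and others stepped down after 0, while Sox4 and Onecut2 did neither. The values are given here without a test because Lgr5 set the groups and depth moved with them. They are means in which each tumor counted equally. Some sums were small, down to 17 cells in a tumor at 2 Lgr5 UMIs, 8 at 3 to 4 and 3 at 5 or more. Slc12a2, the basolateral sodium, potassium and chloride cotransporter of crypt cells, stood at 303, 364, 415, 515 and 642 CPM in cells with 0, 1, 2, 3 to 4 and 5 or more Lgr5 UMIs. Lrig1, an inhibitor of ERBB receptors that marks stem cells, stood at 16.1, 31.0, 37.1, 53.02 and 60.3 CPM. Wfdc18, a secreted whey acidic protein, stood at 1140.5, 2091, 2217, 2386 and 3500 CPM. These 3 genes increased across all 5 groups. Sprr1a, a cornified envelope protein found in regenerating epithelium, stood at 55.1 CPM at 0 and at 9.20, 7.36, 7.65 and 7.32 CPM in the other 4 groups. For Sprr1a and Anxa1 the step was between 0 and 1, on the far side of the threshold. Sprr1a was detected in 6.81% of the cells at 0 and in 5.19% of the Lgr5 cells, so its levels came from few cells.

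Against the Lgr5 = 0 cells of the same tumors, 11 of 20 stem cell genes and 11 of 19 intestinal transcription factors were higher in the Lgr5 cells, with 1 lower in each list. In the other direction, 11 of 19 fetal-like genes, 10 of 15 mitosis genes and 13 of 20 ribosome biogenesis genes were lower. At an adjusted p under 0.05, 1258 genes (11% of 11479) rose and 1420 (12.4%) fell. The split depended on the scaling: without the TMM factors, 70.1% of calls were higher, against 47.0% with them. The 20 crypt stem cell genes had a median log2 difference of 0.50 against 0.01 over all genes.

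Among the stem cell genes, Lrig1 was at 30.03 to 91.5 CPM (median 43.0) in the Lgr5 cells and at 6.59 to 23.1 CPM (median 16.0) in the Lgr5 = 0 cells. The groups did not overlap, and the log2 difference was 1.48 ± 0.18 (edgeR adjusted p = 1.24e-05). Cdca7, a chromatin protein and MYC target of stem and progenitor cells, was at 76.6 to 163 CPM (median 109) against 38.9 to 72.6 CPM (median 57.4). It too was separated, with a log2 difference of 0.89 ± 0.07 (edgeR adjusted p = 1.66e-07). Rgmb, a BMP co-receptor, was at 23.2 to 47.3 CPM against 11.3 to 27.2 CPM and was higher in 10 of 10 tumors (log2 0.96 ± 0.10). Ascl2, the transcription factor that sustains Lgr5 stem cells, was at 29.6 to 75.1 CPM against 15.8 to 54.7 CPM. Its groups overlapped, while within each of the 10 tumors the Lgr5 cells were higher (log2 0.68 ± 0.09, edgeR adjusted p = 1.95e-05).

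Slc12a2, Sox9, Prom1 and Tnfrsf19 were also higher in 10 of 10 tumors. Their log2 differences were 0.63 ± 0.08 for Slc12a2, 0.63 ± 0.08 for Sox9, 0.46 ± 0.07 for Prom1 and 0.89 ± 0.14 for Tnfrsf19. For Tnfrsf19, 1 of the 2 genes whose promoter is printed above, levels were 15.8 to 65.8 CPM against 5.79 to 36.0 CPM. Hopx, a gene of quiescent stem cells, and Kcne3, a potassium channel subunit, completed the 11. For Prom1 and for Hopx 1 of 20 alternatives lost the call. The 1 stem cell list gene that was lower was Cd44, a hyaluronan receptor and Wnt target, at 48.8 to 117 CPM against 96.9 to 154 CPM. It fell in 10 of 10 tumors (log2 -0.80 ± 0.10, edgeR adjusted p = 2e-05), so the stem cell list did not move as one.

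**Figure D3:**
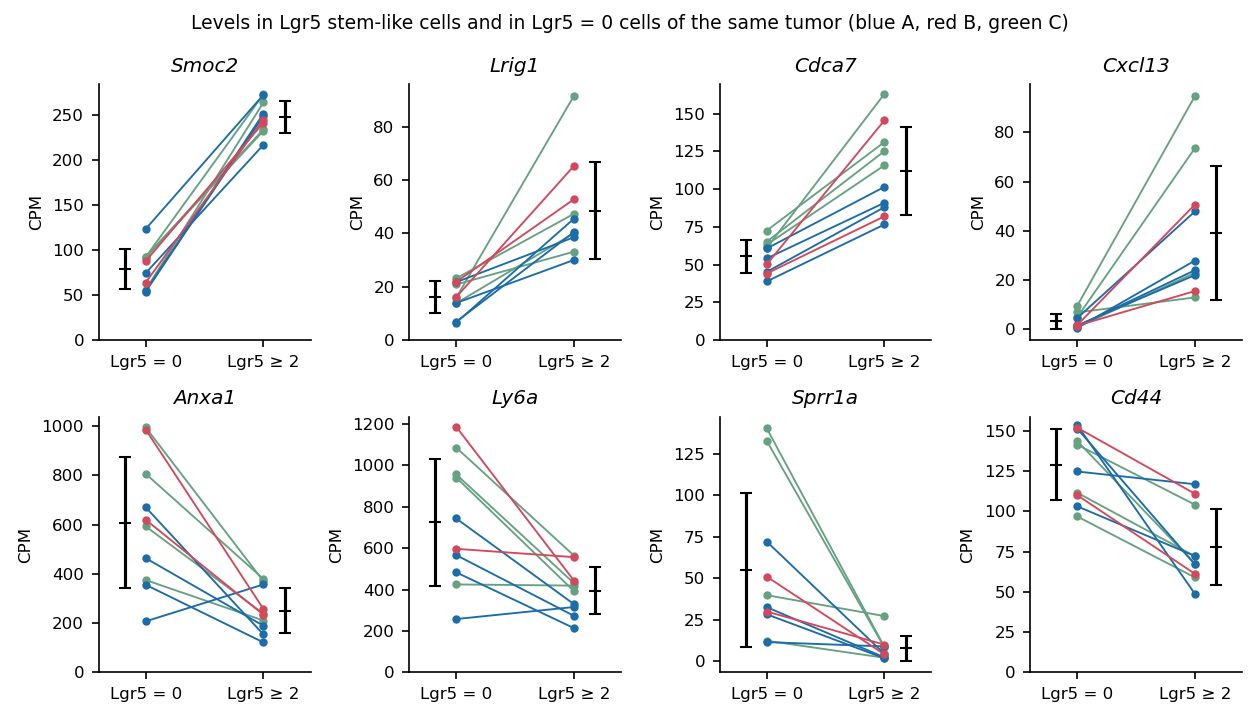
Level in CPM of 8 genes in Lgr5 = 0 and Lgr5 stem-like cells, with 1 line per tumor colored by mouse and the mean ± SD over 10 tumors in black. Smoc2, Lrig1, Cdca7 and Cxcl13 rise without overlap between the groups, Sprr1a and Cd44 fall in all 10 tumors, and Anxa1 and Ly6a fall in 9 of 10.

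Wnt readouts outside the selection were mixed. Of 13 feedback and membrane regulators tested, 3 were higher and 1 was lower: Rnf43, its homolog Znrf3 and Tmem64, and the secreted inhibitor Dkk2. Znrf3 was at 26.8 to 55.4 CPM against 20.9 to 42.0 CPM (log2 0.43 ± 0.08), and Dkk2 at 59.0 to 152 CPM against 74.7 to 185 CPM (log2 -0.50 ± 0.10). For both genes 1 of 20 alternatives lost the call. Of 19 further Wnt targets, 4 were higher and 6 lower, a balance that turned to 7 and 4 without the TMM factors and to 1 and 4 without tumor as a term. Sp5 was among the higher ones at 22.2 to 64.7 CPM against 15.2 to 43.7 CPM, but it only just passed (log2 0.34 ± 0.12, edgeR adjusted p = 0.0494), and 15 of 20 alternatives lost the call (0.0153 to 0.309). Myc and Ccnd1, both drivers of cell growth and division, were lower by 0.62 ± 0.10 and 0.65 ± 0.09 on the log2 scale, each in 9 of 10 tumors.

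Of 19 transcription factors of the intestinal epithelium, 11 were higher and 1, Onecut2, was lower, with 7 to 14 higher and 0 to 1 lower over the 20 alternatives, the fewest without tumor as a term. Klf4, a factor of differentiated epithelium and goblet cells, had the median 170 CPM against 100 CPM and was higher in 10 of 10 tumors (log2 0.73 ± 0.08). The colon identity factors were less clear. Cdx1 was at 33.3 to 81.4 CPM against 25.2 to 71.2 CPM (log2 0.37 ± 0.11, edgeR adjusted p = 0.0199), and 5 of 20 alternatives lost the call (0.0011 to 0.195). In the Notch pathway, by which neighboring cells hold stem cells undifferentiated, 4 of 12 genes were higher (2 to 4 over the alternatives) and 1 lower (0 to 1). The receptor Notch1 was at 41.0 to 65.4 CPM against 25.4 to 40.5 CPM, without overlap (log2 0.57 ± 0.09), and its target Hes1 was at 186 to 350 CPM against 125 to 242 CPM (log2 0.55 ± 0.08).

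Of 19 fetal-like and regenerative genes tested, 11 were lower in the Lgr5 cells and 0 higher by edgeR (13 lower and 0 higher at an unadjusted p under 0.05, and 11 and 0 by DESeq2). Over the 20 alternatives 8 to 14 were lower and 0 higher. Anxa1, a membrane-binding protein of wounded epithelium, was at 122 to 379 CPM (median 236) against 207 to 994 CPM (median 606). Its log2 difference was -1.31 ± 0.18 (edgeR adjusted p = 4.15e-05), and tumor by tumor it fell in 9 of 10. Ly6a, also known as Sca-1, was at 214 to 564 CPM (median 406) against 258 to 1185 CPM (median 670), with a log2 difference of -0.89 ± 0.14. Sprr1a showed the largest drop of the list, from 11.6 to 140 CPM in the Lgr5 = 0 cells to 1.88 to 27.3 CPM, with a log2 difference of -2.80 ± 0.34. Krt19, a keratin of simple epithelium, fell in 10 of 10 tumors by 0.50 ± 0.05 on the log2 scale. The Lgr5 cells still carried these RNAs, with the whole list summing to 3130 to 5562 CPM against 3997 to 9066 CPM. Detection was read without a test in cells thinned to 5000 UMIs, pooled over tumors. Anxa1 was then found in 45.1% of Lgr5 cells against 42.8%, Anxa2 in 82.7% against 74.8% and Krt7 in 84.8% against 82.6%. The other lower genes were found in a smaller share of Lgr5 cells, such as Ly6a (43.2% against 43.5%) and Anxa3 (21.4% against 27.6%). Lower sums thus did not always come with a smaller share of cells carrying the RNA.

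Both groups had passed the same limit on Mki67 and Top2a. Of 15 mitosis genes, 10 were lower and 0 higher by edgeR (12 and 0 unadjusted, 9 and 0 by DESeq2), among them Cenpf, a kinetochore protein, at 6.33 to 31.1 CPM against 16.4 to 28.3 CPM (log2 -0.80 ± 0.13). That limit counted raw UMIs, and the Lgr5 = 0 cells were shallower. Over the 20 alternatives 5 to 13 were lower, 5 of them without tumor as a term in the fit. With comparison cells matched on total UMIs 11 were lower, but in tumor 6 all 213 Lgr5 = 0 cells were taken for 256 Lgr5 cells, so the depths there stayed apart (median 6955 against 11931 UMIs), and in tumor 4 the medians were 13285.5 and 15868.5 UMIs. DNA replication genes gave 1 higher and 0 lower of 20. Ribosome biogenesis and MYC target genes gave 13 lower of 20 and 0 higher by edgeR (16 and 0 unadjusted, 12 and 0 by DESeq2). Odc1, the first enzyme of polyamine synthesis, was at 63.3 to 88.4 CPM against 82.6 to 150 CPM and fell in 10 of 10 tumors (log2 -0.52 ± 0.08).

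Among 13 cell cycle inhibitors and p53 targets, 3 were higher and 6 lower. Cdkn1b, which encodes p27, was at 25.3 to 48.5 CPM against 21.6 to 29.1 CPM (log2 0.37 ± 0.09, edgeR adjusted p = 0.0076). Cdkn1a, which encodes p21 and is induced by p53, was at 144 to 342 CPM against 214 to 421 CPM and fell in 10 of 10 tumors (log2 -0.53 ± 0.07). Cdkn2a, the locus of p16 and of p19Arf, which these counts do not separate, was at 8.44 to 137 CPM (median 44.9) against 37.3 to 100 CPM (median 61.7). It was lower in 8 of 10 tumors (log2 -0.50 ± 0.17, edgeR adjusted p = 0.0361), and 11 of 20 alternatives lost the call (8.25e-07 to 0.594). Its neighbor Cdkn2b was at 18 to 53.2 CPM against 21.2 to 57.2 CPM, with a log2 difference of -0.34 ± 0.11 whose call was lost in 8 of 20 alternatives (0.0031 to 0.3).

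**Figure D4:**
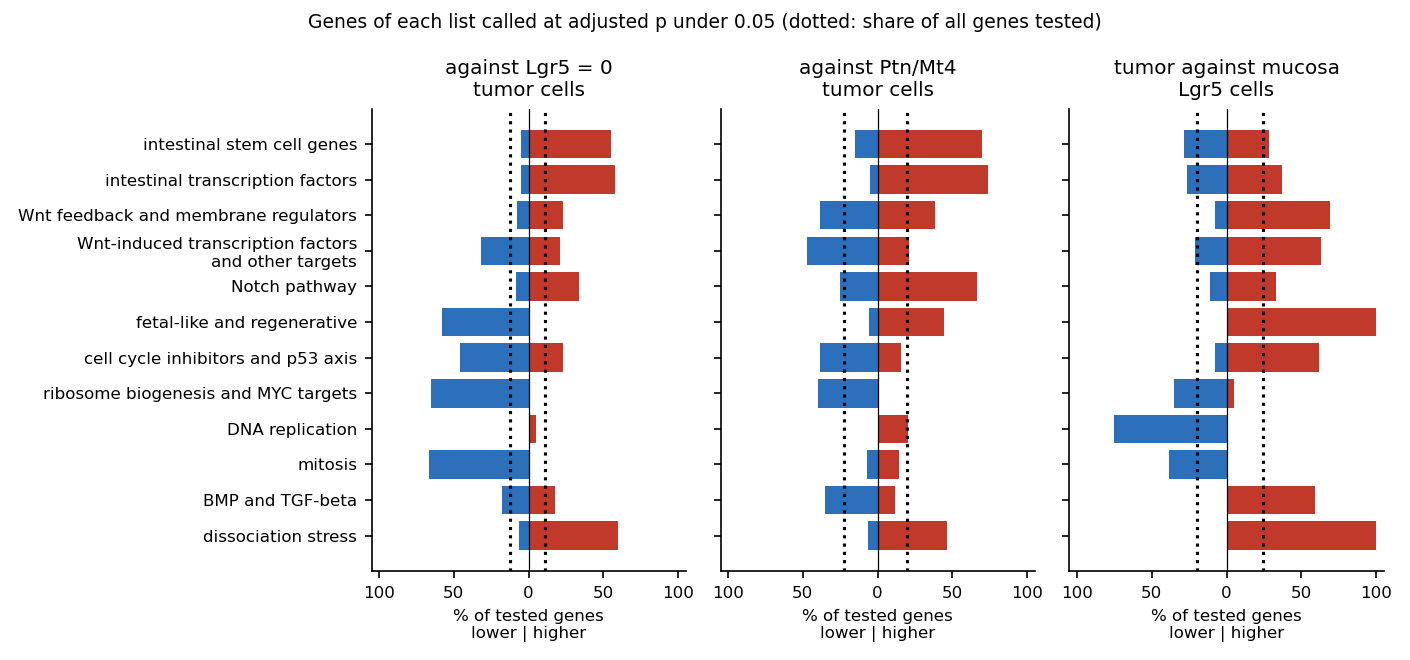
For 12 gene lists, the percentage of tested genes called higher (red, right) or lower (blue, left) in the Lgr5 stem-like cells against Lgr5 = 0 tumor cells, against Ptn/Mt4 tumor cells, and in tumor against mucosa Lgr5 cells, with the percentage over all genes as dotted lines. Of the fetal-like genes, 11 of 19 are lower in the first comparison and 16 of 16 higher in the third.

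Cxcl13, the chemokine that attracts B cells, was at 12.9 to 94.8 CPM (median 25.9) in the Lgr5 cells and at 0.446 to 9.48 CPM (median 1.55) in the Lgr5 = 0 cells, without overlap. Its log2 difference of 3.40 ± 0.27 (edgeR adjusted p = 1.51e-07) was the largest increase among the genes named in this comparison. Thbs2, a matrix thrombospondin, was at 35.7 to 110 CPM against 15.4 to 46.9 CPM (log2 1.51 ± 0.09). Cdo1, which oxidizes cysteine, was at 71.0 to 94.5 CPM against 20.7 to 45.8 CPM, a narrow range over tumors (log2 1.28 ± 0.09). Wfdc18, described above by Lgr5 count, was higher in 10 of 10 tumors (log2 1.30 ± 0.16). The Wnt ligand Wnt16 was at 1.12 to 48.5 CPM against 0.987 to 25.1 CPM (log2 1.35 ± 0.18), and Fut9, a fucosyltransferase, at 1.97 to 59.1 CPM against 0 to 34.8 CPM (log2 1.29 ± 0.18). Both were higher in 10 of 10 tumors although their ranges over tumors overlapped, and 1 of 20 alternatives lost each call. Fam174b and Cplx2, a complexin of regulated secretion, were also higher in 10 of 10 tumors. The genes of this paragraph were chosen among those with 1 direction in all 10 tumors, so that count is not a result.

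Lower in all 10 tumors, as their choice required, were Cxcl5, Prss22, Ly6g, Cadps, Car1, Tnfaip2, Aldh1a3, Trim15 and Plat. Cxcl5, a chemokine for neutrophils, was at 3.09 to 294 CPM (median 18.2) against 18.3 to 522 CPM (median 299.5), with a log2 difference of -3.36 ± 0.37 (edgeR adjusted p = 4.61e-06). Plat, the tissue plasminogen activator, was at 12.7 to 137 CPM against 63.4 to 296 CPM (log2 -2.17 ± 0.17). Car1, the carbonic anhydrase of absorptive colonocytes, was at 1.34 to 80.2 CPM against 5.92 to 331 CPM (log2 -2.56 ± 0.25). Muc2, the goblet mucin, was lower in 7 of 10 tumors, at 1.082 to 45.2 CPM against 3.68 to 54.8 CPM (log2 -1.27 ± 0.34). Pyy, the peptide YY hormone of enteroendocrine cells, was lower in 6 of 10, at 1.69 to 689 CPM against 0 to 1639 CPM (log2 -1.69 ± 0.55). The Pyy call was lost in 9 of 20 alternatives (1.93e-98 to 0.317) and that of Muc2 in 3 (1.2e-18 to 0.153).

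RNA of other cells and of handling moved with these groups. Immediate early genes of dissociation were higher for 9 of 15 genes (3 to 12 over the 20 alternatives, the fewest without tumor as a term) and lower for 1, for example Fos at 348 to 1150 CPM against 223 to 525 CPM (log2 0.70 ± 0.10), and the list summed to 3878 to 9451 CPM against 3528 to 6111 CPM. Of 15 leukocyte genes, 10 were lower (4 to 10 over the alternatives) and 3 higher (0 to 5), and the list summed to 816 to 4599 CPM in the Lgr5 cells and 998 to 3560 CPM in the Lgr5 = 0 cells, while Ptprc was at 0 in both by selection. The neutrophil gene S100a8 was at 21.6 to 303 CPM against 25.9 to 431 CPM (log2 -1.28 ± 0.28), a call lost in 1 of 20 alternatives. Of 6 stromal genes, Vim, Sparc and Rgs5 were higher and Acta2 lower (0 to 3 higher and 0 to 2 lower over the alternatives), with sums of 110 to 700 CPM against 97.9 to 422 CPM. The stromal count is a description. Sparc was detected in 0.455% of the Lgr5 cells and 0.363% of the Lgr5 = 0 cells. Rgs5 was detected in 3.46% and 0.403%, and could pass the filter through the Lgr5 cells. Of 5 tuft cell genes, 1 was higher (0 to 1 over the alternatives) and 3 lower (0 to 3). The tuft count is a description too, since Rgs13, one of the lower genes, was detected in 0% of the Lgr5 cells and passed the filter through the Lgr5 = 0 cells. The tuft list had sums of 60.6 to 129 CPM against 72.9 to 157 CPM. The part of these lists in the differences above was not tested. Without tumors 7 and 10, which held the fewest Lgr5 cells, 11 stem cell genes were higher and 11 fetal-like genes lower.

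With the 788 cells at 1 Lgr5 UMI as the comparison, 53 genes were called, against 2678 with the 2480 cells at 0. The cells at 1 numbered 26 to 139 per tumor. The comparison cells matched on total UMIs, with tumor 6 unmatched and tumor 4 matched in part, had Lgr5 at 0 and numbered 30 to 213 per tumor. They gave 2177 genes.

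Division is described with the limit on Mki67 and Top2a lifted on both sides, and without a test, since these genes and Lgr5 belong to the selection. Among Wnt-active epithelial cells with at least 2 Lgr5 UMIs, 22.7% ± 5.28 (SD, n = 10 tumors) had at least 4 UMIs of the 2 genes. Among those with Lgr5 at 0, the share was 24.2% ± 7.51. The difference of -1.56 percentage points (SD 5.83) was smaller than its SD, with the Lgr5 cells higher in 5 of 10 tumors. The mean of the 3 mouse means was -1.43 points. Cells of at least 5000 UMIs were then thinned to 5000 UMIs to remove the depth gap, and shallower cells were left out. Lgr5 was read again after thinning, so the groups changed. They went from 1395 to 470 cells with at least 2 Lgr5 UMIs and from 3234 to 3581 cells at 0. The shares were 8.04% and 13.1% and the difference -5.11 points, with the Lgr5 cells higher in 2 of 10 tumors. With thinning and a lower threshold of 2 UMIs together, a setting chosen after seeing the data, the difference was -9.61 points. The Lgr5 cells were then higher in 1 of 10 tumors. The size of the difference thus moved with depth, threshold and the cells grouped.

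The second comparison was with the Ptn/Mt4 cells, 2877 Wnt-active tumor epithelial cells that met the other limits but held at least 5 UMIs of Ptn and Mt4, whatever their Lgr5. Ptn encodes pleiotrophin, a secreted growth factor, and Mt4 a metallothionein of stratified epithelium. Against them 14 of 20 stem cell genes were higher in the Lgr5 cells and 3 lower, and the ligands Wnt6 and Wnt10a and the factors Sp5 and Lef1 were lower. By the same edgeR test, calls were made in both directions among 11849 genes, 2296 (19.4%) upward and 2647 (22.3%) downward. Without the TMM factors 58.8% of calls were higher, against 46.45% with them. The Ptn/Mt4 cells were deeper, with tumor medians of 17225 to 21134 UMIs.

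The 3 lower stem cell genes were Msi1, Bmi1 and Mex3a. Among the 14 higher ones, Slc12a2 was at 252 to 637 CPM in the Lgr5 cells and 73.4 to 173 CPM in the Ptn/Mt4 cells, without overlap (log2 1.98 ± 0.07, edgeR adjusted p = 1.46e-12). Lrig1 was at 30.03 to 91.5 CPM against 2.37 to 8.87 CPM (log2 3.08 ± 0.14), Cdca7 at 76.6 to 163 CPM against 21.5 to 44.3 CPM (log2 1.68 ± 0.06) and Smoc2 at 217 to 273 CPM against 76.6 to 193 CPM (log2 1.12 ± 0.10). All 4 genes were separated by a gap between the groups. Prom1, the CD133 glycoprotein, was at 97.3 to 284 CPM against 50.6 to 127 CPM and was higher in 10 of 10 tumors (log2 1.19 ± 0.08). Sox4 passed here, at 483 to 881 CPM against 340 to 619 CPM (log2 0.42 ± 0.07), whereas Onecut2 had a log2 difference of -0.13 ± 0.15 (edgeR adjusted p = 0.512).

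Wnt readouts moved both ways. Of 19 Wnt targets, 4 were higher and 9 lower, and of 13 feedback and membrane regulators 5 and 5. The ligand Wnt6 was at 20.3 to 103 CPM against 97.7 to 264 CPM (log2 -1.79 ± 0.11), and Wnt10a at 8.13 to 71.7 CPM against 38.7 to 137 CPM (log2 -1.38 ± 0.15). Sp5 was at 22.2 to 64.7 CPM against 42.9 to 119 CPM (log2 -1.15 ± 0.10), and Lef1, a TCF family factor, at 23.2 to 53.7 CPM against 39.5 to 64.9 CPM (log2 -0.74 ± 0.09). Each of these 4 genes fell in 10 of 10 tumors. The selection genes Nkd1 and Wif1 were at means of 334 and 264 CPM in the Lgr5 cells and 643 and 577 CPM in the Ptn/Mt4 cells, while Lgr5 was at 43.6 CPM ± 31.8 in the latter.

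Of 19 intestinal transcription factors 14 were higher (12 to 15 over the 18 alternatives) and 1 lower. Of 12 Notch genes 8 were higher (6 to 8) and 3, Jag2, Hes6 and Hey1, lower (1 to 3). These counts are a description. Cdx2 gave 61 UMIs in the Lgr5 cells and 19 in the Ptn/Mt4 cells, and Atoh1 38 and 27. Such genes could pass the filter on low counts only through the Lgr5 cells. Cdx1 was at 33.3 to 81.4 CPM against 10.6 to 39.5 CPM and was higher in 10 of 10 tumors (log2 1.42 ± 0.11). Notch1 and Hes1 were higher by 0.36 ± 0.08 and 0.42 ± 0.08 on the log2 scale, and 1 of 18 alternatives lost the Hes1 call. Cxcl13 again stood out, at 12.9 to 94.8 CPM against 0.233 to 3.64 CPM (log2 4.596 ± 0.36). Duox2, which makes hydrogen peroxide at the gut surface, was at 16.8 to 51.1 CPM against 1.71 to 8.83 CPM (log2 2.59 ± 0.26). Nlrp6, an inflammasome sensor, was at 8.99 to 90.8 CPM against 1.52 to 11.3 CPM (log2 3.04 ± 0.22), and Ceacam1, an adhesion molecule, at 38.2 to 205 CPM against 8.97 to 67.8 CPM (log2 2.55 ± 0.17). Both rose in 10 of 10 tumors, as their choice required. Of 18 fetal-like genes, 8 were higher (3 to 9 over the 18 alternatives, the fewest without tumor as a term) and 1 was lower (1 to 2). The stromal list summed to 110 to 700 CPM in the Lgr5 cells and 544 to 1622 CPM in the Ptn/Mt4 cells. Of 15 dissociation stress genes, 7 were higher (1 to 9 over the alternatives, again the fewest without that term) and 1 lower, with sums of 3878 to 9451 CPM against 3304 to 6623 CPM. Of 15 leukocyte genes, Cd74, Spp1, Cd14 and Cd68 were higher (2 to 5 genes over the alternatives), with sums of 816 to 4599 CPM against 870 to 2378 CPM. The part of these 3 lists in the differences was not tested.

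A set of genes of the Ptn/Mt4 cells was nearly absent from the Lgr5 cells. Mptx2, a pentraxin of Paneth cells, gave 0 UMIs in the Lgr5 cells and 8684 in the Ptn/Mt4 cells, which makes it at least 787-fold lower against a floor of 3 counts over the group. Npy, neuropeptide Y, gave 4 and 5747 UMIs, a ratio of 390 (95% exact interval 152 to 1434, counting error only). The chemokine Cxcl14 gave 12 and 2394 UMIs, the T-box factor Tbx1 gave 8 and 1491, and Apoc4, an apolipoprotein, gave 27 and 2624. All of these lay apart without overlap over the 10 tumors. Vim, the intermediate filament vimentin, was present in both but lower in the Lgr5 cells, at 90.8 to 628 CPM against 528 to 1586 CPM (log2 -2.12 ± 0.14). Cdkn2a was at 8.44 to 137 CPM against 25.5 to 153 CPM, lower in 8 of 10 tumors (log2 -0.75 ± 0.20, edgeR adjusted p = 0.007, with the call lost in 2 of 18 alternatives, 8.35e-06 to 0.258).

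The third comparison asked how the tumor cells differed from Lgr5 cells of the adjacent mucosa. The whole selection left 26, 2 and 11 mucosa cells in the libraries of mice C, A and B, too few for a test in 2 of 3. The limit on the 5 Wnt-induced genes was therefore dropped in both tissues, which left 85, 38 and 71 mucosa cells and 1358 tumor cells, 1098 of them the Lgr5 cells described so far. By edgeR, 2596 genes (24.6% of 10568) rose in tumor and 2100 (19.9%) fell. The genes dropped from the selection differed in level, with Notum at 35.1 to 173 CPM in tumors and 0 UMIs in mucosa, Nkd1 at 291 CPM ± 140 against 7.80 ± 5.01, and Axin2 at 192 CPM ± 28.6 against 74.0 ± 2.33.

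Stem cell genes as a list did not separate the tissues, with 6 higher and 6 lower of 21, and 4 and 3 without the mucosa library of mouse C or without that of mouse B. Smoc2 was at 192 to 262 CPM in the 10 tumors and at 127, 131 and 141 CPM in the 3 mucosa libraries, without overlap (log2 0.73 ± 0.13, edgeR adjusted p = 0.000355). Tnfrsf19 was at 14.6 to 61.6 CPM against 4.46 to 5.58 CPM (log2 2.35 ± 0.49), a call lost in 1 of 21 alternatives. In the other direction, Rgmb was at 23.8 to 55.7 CPM against 62.6 to 64.7 CPM (log2 -0.85 ± 0.21). Ascl2 was at 28.5 to 71.1 CPM against 55.7 to 95.4 CPM (log2 -0.81 ± 0.24), a call lost in 3 of 21 alternatives (adjusted p 0.002 to 0.0725), among them without the mucosa library of mouse C and without that of mouse B (log2 -0.77 and -0.69). Lrig1 did not pass, at 33.0 to 93.5 CPM against 56.1 to 66.9 CPM (log2 -0.31 ± 0.26, edgeR adjusted p = 0.355).

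The markers Rnf43, Sox4 and Onecut2 set tumor cells apart from mucosa. Rnf43 was at 109 to 197 CPM against 45.1 to 79.5 CPM (log2 1.32 ± 0.19), and Sox4 at 494 to 843 CPM against 216 to 310 CPM (log2 1.23 ± 0.18). Onecut2, at 60.2 to 317 CPM in tumors, gave 0 UMIs in the 3668620 UMIs of the mucosa cells, so it was at least 184-fold higher in tumor (floor of 3 counts over the group). Beyond the selection, 9 of 13 Wnt feedback and membrane regulators and 12 of 19 Wnt targets were higher. These counts are a description, since Dkk2, Dkk3 and Wnt10a gave 0 UMIs in mucosa, Wnt6 gave 1, Apcdd1 3 and Lef1 5, and such genes passed the filter on low counts through the tumors. Dkk2 was at 55.7 to 140 CPM against 0 UMIs, at least 126-fold higher. Znrf3 was at 24.3 to 52.7 CPM against 6.69 to 9.35 CPM (log2 2.09 ± 0.29), and Lef1 at 16.3 to 49.5 CPM against 0 to 1.87 CPM (log2 4.35 ± 0.49). Wnt6 gave 1120 UMIs in tumor and 1 in mucosa, a ratio of 206 with a wide interval (36.9 to 8141). Myc went the other way, at 17.1 to 36.0 CPM against 33.4 to 60.8 CPM (log2 -1.17 ± 0.22).

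All 16 fetal-like and regenerative genes tested were higher in the tumor Lgr5 cells than in the mucosa Lgr5 cells. The list holds 20 genes, and one near 0 in mucosa could pass the filter on low counts only through the tumors, so this count is a description. Clu, a secreted chaperone of revival stem cells, was at 104 to 800 CPM in tumors and gave 2 UMIs in mucosa, a ratio of 762 (95% exact interval 211 to 6289). Anxa1 was at 143 to 369 CPM against 46.8 to 78.1 CPM (log2 1.89 ± 0.31), and Ly6a at 233 to 635 CPM against 86.0 to 212 CPM (log2 1.45 ± 0.31). Anxa1 and Ly6a were thus lower than in the Lgr5 = 0 tumor cells and higher than in mucosa, where the tissues were digested differently.

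**Figure D5:**
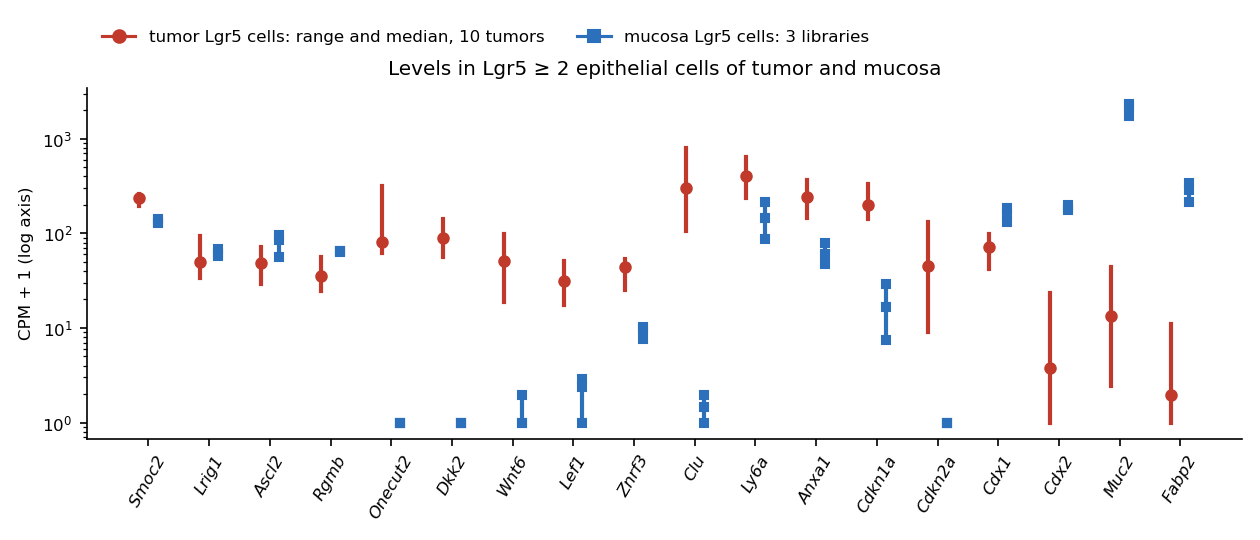
Level in CPM plus 1 on a log axis for 18 genes in Lgr5 epithelial cells, as the range and median over 10 tumors (red) and the 3 mucosa libraries (blue). Onecut2, Dkk2 and Cdkn2a are at 0 in mucosa, Muc2, Fabp2 and Cdx2 are higher there, and Lrig1 and Ascl2 overlap.

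Of 13 cell cycle inhibitors and p53 targets tested, 8 were higher in tumor and 1 lower, a description under the same limit of the filter, with Cdkn2b at 8 UMIs and Phlda3 at 16 UMIs in mucosa. Cdkn1a was at 140 to 331 CPM against 6.51 to 28.1 CPM (log2 3.70 ± 0.38, edgeR adjusted p = 1.7e-06). Cdkn2a was at 8.03 to 130 CPM against 0 UMIs, at least 79.9-fold higher. In the BMP and TGF-β pathways 10 of 17 genes were higher, among them Inhba and Inhbb, which gave 0 UMIs in mucosa and passed the filter through the tumors. Of 20 DNA replication genes, 15 were lower in tumor and 0 higher by edgeR (17 and 0 unadjusted, 16 and 0 by DESeq2), for example Pcna, the replication clamp, at 63.1 to 101 CPM against 104 to 127 CPM (log2 -0.54 ± 0.15). Cells of both tissues had passed the same raw UMI limit on Mki67 and Top2a. By the whole selection, median depths were 25177, 12724 and 15153 UMIs in mucosa of mice C, A and B. They were 10217 to 15868.5 UMIs in tumors, and the part of depth was not tested. Of 19 intestinal transcription factors 7 were higher in tumor and 5 lower, a description, since Onecut2, among the higher, gave 0 UMIs in mucosa. Among the lower, Cdx2, the colon identity factor, was at 0 to 22.5 CPM in tumors against 174 to 199 CPM in mucosa (log2 -5.53 ± 0.56), and Cdx1 at 40.8 to 96.7 CPM against 131 to 185 CPM (log2 -1.29 ± 0.20).

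Among the largest increases in tumor were genes with 0 UMIs in the mucosa cells. Mgp, the matrix Gla protein, was at 97.0 to 945 CPM in tumors, at least 648-fold higher. The matrix proteins Spock2, Fn1 and Thbs2 were at least 227, 219 and 99.0-fold higher. The small heat shock protein Hspb1 and the cadherin Cdh13 were at least 121 and 93.9-fold higher. The neutrophil genes S100a8 and S100a9 were also at 0 in mucosa and at 22.6 to 433 and 22.3 to 703 CPM in tumor, and 11 of 14 leukocyte genes tested were higher in tumor and 2 lower. This count is a description under the same limit of the filter, since Lyz2, Il1b and Spp1 also gave 0 UMIs in mucosa, C1qb 1 and Tyrobp 2, and without the mucosa library of mouse C 6 were higher. The summed leukocyte list was at 830 to 4596 CPM in tumor and 3047 to 4029 CPM in mucosa, where Cd74, an antigen presentation gene that colon epithelium can also express, made up 2935 to 3848 CPM. Of the stromal list, both genes tested, Vim and Acta2, were higher in tumor, also a description, since Acta2 gave 8 UMIs in mucosa and the other genes of the list did not pass the filter, and the list summed to 74.1 to 677 CPM against 6.69 to 23.4 CPM. The part of leukocyte and stromal RNA in these differences was not tested.

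Of 12 goblet cell genes, 6 were lower in tumor and 1 higher, of 12 absorptive cell genes 4 and 2, of 5 enteroendocrine genes 4 and 1, and of 4 tuft cell genes 1 and 1. These counts are descriptions, since Ang4 and Prdm1, among the higher genes, gave 0 UMIs in mucosa and Emp1 gave 6, and Rgs13, among the lower, gave 0 in tumor. Muc2 was at 1.44 to 43.3 CPM in tumor against 1720.4 to 2334 CPM in mucosa (log2 -7.14 ± 0.46), and Fabp2, a fatty acid binding protein of absorptive cells, at 0 to 10.0 CPM against 213 to 343 CPM. Retnlb, a goblet cell antimicrobial, gave 14 UMIs in tumor and 1586 in mucosa, and Rgs13, a gene of tuft cells, gave 0 and 124. By the whole selection, with 26, 2 and 11 mucosa cells in mice C, A and B, mucosa Muc2 was at 2231, 39.3 and 60.4 CPM. Tumor Muc2 was then at 45.2 CPM or less. In the same order, mucosa Retnlb was at 158, 0 and 0 CPM and Rgs13 at 0 in each. Mucosa Fabp2 was at 255, 432 and 175 CPM, against 16.9 CPM or less in tumors. With the limit on Wnt-induced genes dropped, the goblet list summed to 147 to 1739 CPM in tumor and 6764 to 16624 CPM in mucosa. The enteroendocrine list summed to 19.7 to 646 CPM against 26.8 to 688 CPM, with 1 to 6 of its genes lower over the 21 alternatives. All 15 dissociation stress genes were higher in tumor, with sums of 3861 to 9184 CPM against 1439 to 1884 CPM, again a description, since Hspa1a gave 1 UMI and Hspa1b 2 in mucosa. The part of goblet and enteroendocrine RNA and of handling in these differences was not tested.

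Within the Lgr5 cells, several of the genes that varied most over tumors belong to other cell types. Among 2828 genes with a mean of at least 50 CPM, the median coefficient of variation over tumors was 0.17. The 10 genes with the largest value were Hbb-bs, Lypd8, Jchain, Pyy, Tff3, Spp1, Cxcl9, Igha, Igkc and Reg3b. Hbb-bs, a hemoglobin chain of red cells, reached 1629 CPM in tumor 4 and 424 CPM in tumor 1 and stayed at 15.2 CPM or less elsewhere. Igkc, an immunoglobulin light chain, ranged from 69.6 CPM in tumor 2 to 11289 CPM in tumor 8. Lypd8, which keeps bacteria off the colon surface, was at 1908 CPM in tumor 10 and at 37.7 to 146 CPM in the other 9. Cxcl9, an interferon-induced chemokine, ranged from 0.508 CPM in tumor 3 to 374 CPM in tumor 6. Hemoglobin and immunoglobulin genes were thus read in sums of cells with no Ptprc UMI.

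Between the 3 mice, 119 of 10489 genes (1.13%) differed in the Lgr5 cells by edgeR's F test. The 10 genes with the smallest p were Pou3f1, Hexim1, Hist1h2ac, Chka, Rmrp, Rps27l, Sem1, Atcayos, Brd2 and Tob1. Pou3f1, a POU transcription factor, was at 25.2 to 33.5 CPM in mouse A, 19.0 and 29.6 CPM in mouse B and 6.29 to 10.2 CPM in mouse C (adjusted p = 0.0087). Hexim1, an inhibitor of transcription elongation, was at 113 to 196 CPM, 122 and 147 CPM, and 41.9 to 63.9 CPM in the same order. Rps27l, a p53 target, went the other way, at 312 to 391 CPM, 390 and 435 CPM, and 596 to 718 CPM. In these 3 genes mouse C lay apart from mice A and B, whereas Hist1h2ac had means of 24.4, 12.4 and 8.67 CPM and Atcayos of 11.01, 2.40 and 1.401 CPM in mice A, B and C, with mouse A apart. Age, processing and animal cannot be told apart. The count was not stable, since leaving out tumor 2 or tumor 4 gave 0 genes, leaving out tumor 1, 5, 6 or 7 gave 5 to 12 and leaving out any other gave 102 to 167, and a 10% mitochondrial limit gave 0, with 1160 at an unadjusted p under 0.05 there and 1646 in the full set.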

How the data were processed

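Single-cell RNA libraries (10x 3′ v3.1) of 10 tumors and 3 adjacent mucosa samples were used. The deposited values are raw UMI counts per gene and barcode, which the authors made with Cell Ranger (version 6.0.0 in the file headers and the submitters' processing notes, another version in the study's methods) on build mm10. The gene annotation version was not given in the sources used here.

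Barcodes with at least 500 UMIs, 200 genes and under 25% mitochondrial UMIs were kept, and members were chosen by the limits given above. The members and the 21 gene lists were chosen with earlier results of these data known. Counts were summed per library and cell group, with at least 20 cells per tested sum, apart from these exceptions. At 3 or more Lgr5 UMIs tumors 7 and 10 entered with 13 and 12 cells. Tumor 7 entered the comparison of mice at the 10% mitochondrial limit with 13. The comparison with mucosa by the whole selection took any cell number. The sums by number of Lgr5 UMIs were not tested and had no minimum, with 3 cells in the smallest tumor sum. Sums were compared with edgeR 4.0.16 in R 4.3.3 (TMM factors, low-count filter, quasi-likelihood test, Benjamini-Hochberg adjustment, calls at 0.05), with tumor as a term for the comparisons within tumors. DESeq2 1.42.0 was an alternative. Since 1 mucosa library held 20 or more cells by the whole selection, the limit on Wnt-induced genes was dropped for that comparison. The share of Lgr5 cells was compared between mice by exact permutation. The fits were also run on simulated counts with 1 common dispersion and no tumor or mouse effects. That run cannot show how the fits behave where such effects exist, and its outcome is not reported here. Python 3.11.15, numpy 2.4.6, scipy 1.17.1 and scikit-learn 1.9.0 were used. Doublets were scored by simulated pairs of cells, the highest scores were marked in proportion to the number of barcodes, and cells so marked were left out in an alternative only. Intervals and floors (3 counts) cover counting error only.

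Genes were named from the lists, and as the 10 largest changes in each direction with an adjusted p under 0.05, a mean of at least 20 CPM in the higher group and 1 direction in every tumor (or no overlap between tissues), leaving out the selection genes. Sums of the same tumor are paired because they come from the same library, and their deviations correlated at 0.253 to 0.764 over genes, own tumor best in 9 of 10. Tumors and mucosa of 1 mouse correlated at 0.129, -0.0018 and 0.194 for mice A, B and C. Alternatives were DESeq2, no TMM factors, no low-count filter, a 10% mitochondrial limit, marked doublets left out, other Lgr5 thresholds, matched or thinned depth, tumors summed by mouse, fits with and without the block, and each library left out. Counts and ranges over the alternatives leave out the setting with the cells at 1 Lgr5 UMI as the comparison.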

Additional observations from a re-analysis of the deposited data

Results flagged for a closer look

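In 13 of 66 groups of tumors examined, 1 tumor lay further from the others than Dixon's 95% limit for 10 samples allows. Chance gives about 3.3 where values are normally distributed. Levels in sums of unlike cell numbers need not be, so no excess over chance is read from this count. Tumor 6 held Lgr5 stem-like cells at 17.6% of gated epithelial cells, with the next tumor at 8.27%, and Tnfrsf19 at 65.8 CPM in them, with the next at 35.8 CPM.

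Tumor 10, with 30 of these cells, stood apart in 5 genes. Klf4 was at 412 CPM (next 227), Aldh1a3 at 46.4 CPM (next 21.8), Trim15 at 27.4 CPM (next 12.6), Srm at 44.3 CPM (next 33.1) and the immediate early gene Fos at 1150 CPM (next 666). Tumor 7, also with 30 cells, had Birc5 at 74.2 CPM (next 27.4).

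Tumor 2 was highest for Sprr1a at 27.3 CPM (next 10.1), Prss22 at 7.97 CPM (next 3.596) and Pyy at 689 CPM (next 298). Tumor 5 had Cxcl5 at 294 CPM (next 40.1), and tumor 3 had Muc2 at 45.2 CPM (next 20.6).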

How the results depend on the processing

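Against the Lgr5 = 0 cells, 2678 genes were called with tumor as a replicate block and 1084 without it, 2233 to 2568 with 1 tumor left out, 2037 by DESeq2, and 53 with the cells at 1 Lgr5 UMI as the comparison, a setting chosen after seeing the data. Against the Ptn/Mt4 cells, 4943 were called with the replicate block and 3025 without it, where the Onecut2 difference turned to 0.015 on the log2 scale (the cause was not tested). Against mucosa, 4696 were called, 4985 with the mouse as a replicate block, 3418 to 4243 with 1 mucosa library left out, and 2411 with the whole selection at any cell number, also added after seeing the data, where fewer cells entered. The mouse comparison gave 119 genes, 381 by DESeq2, 564 without the low-count filter, 0 at a 10% mitochondrial limit (the cause was not tested), and 0 to 167 with 1 tumor left out. At the 10% limit, where tumor 7 entered that comparison with 13 cells, 9 tumors had enough cells for the comparisons within tumors. The cycling difference was -1.56 points, -9.61 points when thinned with a threshold of 2 (added after seeing the data), and -2.57 to -0.563 points with 1 tumor left out. The share of Lgr5 cells was 6.74%, 11.5% at 1 or more Lgr5 UMIs, 3.94% at 3 or more, 2.95% with cells thinned to 5000 UMIs, and 5.54% to 7.29% with 1 tumor left out. The values of named genes under the alternatives leave out the setting with the cells at 1 Lgr5 UMI as the comparison. Of these values, 1165 of 1240 against Lgr5 = 0 cells kept their direction and their side of the threshold. So did 702 of 708 against Ptn/Mt4 cells and 1084 of 1124 against mucosa. With the cells at 1 as the comparison, 2446 of the 2678 called genes were tested. Of these, 48 kept their call and direction, and 312 had the opposite sign. Tumors 7 and 10, with 30 cells each, and 38 to 85 mucosa cells per library limit the precision, and with 3 mice the spread between animals is poorly known.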
